A study of Mus musculus with 12 samples.

Results

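The 10 genes described here encode chaperones of the Hsp70 and Hsp90 families in mouse. They were chosen by name and comprise Hspa1a, Hspa1b, Hspa1l, Hspa2, Hspa4, Hspa4l, Hspa5, Hspa8, Hsp90aa1 and Hsp90ab1. All 10 were found in both count tables, among 51826 entries for sperm and 23502 for testes. Hspa2, Hspa1l and Hspa4l were treated as the germ-cell members, and the other 7 as the ubiquitous ones. The libraries came from C57BL/6J mice in 4 groups of 3 replicates, as labelled. Sperm from the cauda epididymis were taken at postnatal day 56 (P56) from WT males and from Xap5l KO males, which carry a CRISPR-Cas9 deletion of Xap5l in all tissues and are sterile. Whole testes were taken at P16 from WT males and from Xap5 cKO males, in which a floxed Xap5 allele is deleted by Cre expressed from Stra8, a gene switched on in germ cells that enter differentiation and meiosis. The Sertoli, Leydig and other somatic cells of the Xap5 cKO testis therefore keep Xap5. The testis controls are labelled WT, while the paper names Xap5 fl/Y males, which carry the floxed allele, as controls of this line. P16 testes hold spermatogonia and spermatocytes but no mature sperm. Poly(A) RNA was sequenced, and levels are given as CPM, the counts of a gene scaled to library size with edgeR's TMM factors, or as CPM per kb of exon where genes are compared with each other.

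Hsp70 proteins bind unfolded stretches of other proteins and release them in cycles of ATP hydrolysis. J-domain co-chaperones start the cycle, and nucleotide exchange factors, including the Hsp110 proteins, end it. Hsp90 proteins act later, on nearly folded clients such as kinases and receptors, together with a set of co-chaperones of their own. Male germ cells express Hsp70 variants of their own. HSPA2 works in meiotic spermatocytes, where males without it lose their pachytene cells, and HSPA1L is made in spermatids. HSPA4L is an Hsp110 protein abundant in the testis.

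The members differ in sequence and in neighbourhood, and both bear on how well their reads can be told apart. Hspa2 lies on chromosome 12 of GRCm38 from 76404176 to 76406938. Hspa4l lies on chromosome 3 from 40744495 to 40796103. Hspa1b (34956436 to 34959238), Hspa1a (34969190 to 34972156) and Hspa1l (34972703 to 34979285) lie side by side on chromosome 17, and 546 bases separate the divergent starts of Hspa1a and Hspa1l. The coding sequences of Hspa1a and Hspa1b, the stress-inducible pair, were 99.6% identical, and 38.1% of all windows of 150 bases in Hspa1a transcripts also occurred in Hspa1b. That overlap makes the split of reads between them uncertain. Hspa2 was 80.2% identical to Hspa1a and 76.5% to Hspa8, and Hspa4l was 70.3% identical to Hspa4, but none of the windows of Hspa2, Hspa4 or Hspa4l occurred in another gene. Hspa8 shared 55.4% of its windows with other genes, most of them with the pseudogene Gm15459, and Hsp90aa1 shared 36.2%, most of them with Gm12346. Hspa1a overlaps Gm20481 and Hspa1l overlaps Gm10501 on the other strand.

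The sequence before the RefSeq gene start is shown for the members that sit next to each other and for Hspa2. Hspa1a and Hspa1b are near copies beside Hspa1l, and Hspa2 had the widest differences between genotypes. RefSeq promoter windows (GRCm38.p6) were matched for 7 of the 10 members, all but Hspa8, Hsp90aa1 and Hsp90ab1. Each stretch is the part directly before the RefSeq start that no GENCODE exon covers, at most 120 bases. The Hspa2 stretch begins at 76404290, after the GENCODE start at 76404176, so it lies inside the GENCODE span of the gene. The windows of Hspa4l and Hspa5 also reach into their GENCODE spans. Capitals mark a heat shock element (GAANNTTC or TTCNNGAA), the CCAAT box (CCAAT, read as ATTGG on the other strand) and the core of the cAMP response element (TGACGT). No stretch of Hspa4l is shown, since GENCODE exons cover its window.
Hspa2, chr12:76404290-76404369, plus strand: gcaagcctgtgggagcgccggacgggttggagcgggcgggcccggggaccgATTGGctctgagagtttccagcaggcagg
Hspa1l, chr17:34972583-34972702, plus strand: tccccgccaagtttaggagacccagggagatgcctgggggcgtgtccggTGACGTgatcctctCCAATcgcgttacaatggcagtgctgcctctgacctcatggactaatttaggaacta
Hspa1a, chr17:34972157-34972276, minus strand: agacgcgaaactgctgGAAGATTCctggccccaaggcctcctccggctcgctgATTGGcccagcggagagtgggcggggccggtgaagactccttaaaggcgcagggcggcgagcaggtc
Hspa1b, chr17:34959239-34959358, minus strand: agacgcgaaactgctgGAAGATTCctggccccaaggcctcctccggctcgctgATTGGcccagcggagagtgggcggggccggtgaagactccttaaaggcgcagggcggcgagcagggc

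Over the whole 250 bases before the RefSeq start, Hspa1a and Hspa1b differed at 3 positions. A heat shock element was found in these 2 members and in none of the other 5 windows, against 12.8% of all 32851 promoter windows of the same length. The CCAAT box was found in Hspa1a, Hspa1b, Hspa1l, Hspa2 and Hspa5, against 33.8% of all windows. The TGACGT core was found in Hspa1l and Hspa5, against 6.47%. The GC box GGGCGG was found in Hspa1a, Hspa1b, Hspa2, Hspa4l and Hspa5, against 32.7%. The TATA box TATAAA (12.4% of windows), the full element TGACGTCA (1.55%), which contains TGACGT, the X-box core GTTGCC (10.4%) and the forkhead site GTAAACA (3.17%) were found in no member. Both strands were searched, and a match or its absence describes only the letters of the window.

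No entry of the testis table carries the mt- prefix of mitochondrially encoded genes, which took between 10.5% and 27.4% of the counts in sperm. Library totals ran from 38881197 to 52308452 counts in sperm and from 32251198 to 36759054 in testes. The 10 members took between 0.172% and 0.247% of the counts in sperm and between 0.56% and 0.767% in testes. Xap5l, listed as Fam50b, had 419 to 574 counts in WT sperm and 8 to 23 in Xap5l KO sperm. Xap5, listed as Fam50a, had 811 to 988 counts in WT testes and 616 to 673 in Xap5 cKO testes. Whole-gene counts do not isolate the floxed part there, and somatic cells contribute. Each gene was also lower in the other comparison. Fam50b had 197 to 539 counts in WT testes and 0 to 7 in Xap5 cKO testes. Fam50a had 14.9 to 16.8 CPM in WT sperm and 8.45 to 11.1 CPM in Xap5l KO sperm. In WT testis replicate 3 the 10 pachytene spermatocyte markers summed to 1159 CPM, against 2251 and 2184 CPM in replicates 1 and 2, and testis values without it are given where a call changed. Of the 8 elongating spermatid markers, Prm2, Prm3 and Smcp had no count in any testis library, and in sperm the 8 summed to between 46126 and 112760 CPM.

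In WT sperm, Hsp90ab1 had the highest level per length, 231 ± 25.9 CPM per kb (mean ± SD, n = 3). It was followed by Hspa1l with 64.7 ± 14.7 and Hspa8 with 53.0 ± 5.64 CPM per kb, whose libraries overlapped. Hspa2 (38.6 ± 5.21), Hsp90aa1 (34.3 ± 5.28), Hspa4l (29.7 ± 10.8) and Hspa5 (29.4 ± 12.1 CPM per kb) formed the next run, in which each gene overlapped the next. Hspa4 (15.3 ± 0.214), Hspa1b (11.6 ± 1.04) and Hspa1a (8.81 ± 1.51 CPM per kb) were lowest and did not overlap. In Xap5l KO sperm the order changed at the top. Hsp90ab1 had 129 ± 22.4, Hspa2 had 123 ± 57.8, Hspa1l had 100.01 ± 22.8 and Hspa4l had 61.6 ± 17.4 CPM per kb, and each of these overlapped the next, so 3 of the first 4 places were held by germ-cell members. The lengths are unions of annotated exons, 11792 bases for Hspa4l and 4301 for Hspa8, against 9479 and 3158 bases in their longest transcripts, so levels per kb depend on the length used.

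**Figure D1:**
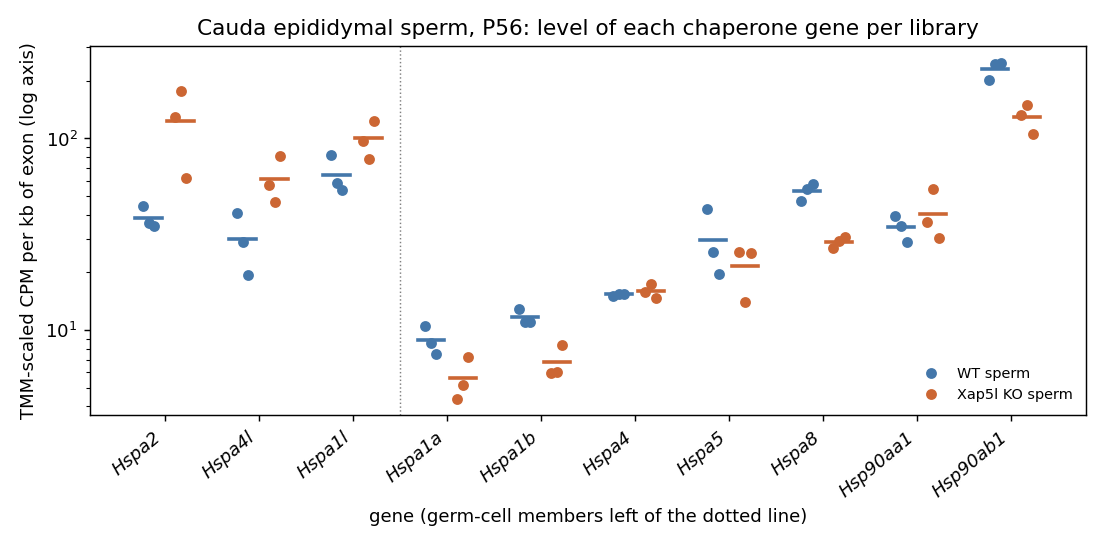
Level of each member in every sperm library, in TMM-scaled CPM per kb of exon on a log axis. Points are the 3 WT and 3 Xap5l KO libraries of P56 sperm and bars are group means. Hspa2 and Hspa4l lie higher in all 3 Xap5l KO libraries, and Hspa1a, Hspa1b, Hspa8 and Hsp90ab1 lie lower in all 3.

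Among the members, Hspa2 alone was called in sperm, and it was higher in Xap5l KO sperm. It had 118, 96.2 and 92.3 CPM in the WT libraries and 341, 469 and 165 CPM in the Xap5l KO libraries. The lowest Xap5l KO library, replicate 3, still lay above the highest WT library, and the spread among Xap5l KO libraries was wide. The fold change was 3.18, or 1.67 ± 0.358 on the log2 scale (± standard error, SE, Benjamini-Hochberg adjusted p = 0.0218, quasi-likelihood test of edgeR). A gene was called at an adjusted p under 0.05 and a fold change above 2, which 7.59% of the 20945 tested genes met in the higher direction. Its call, like most calls in sperm, was lost when certain single libraries were left out. The adjusted edgeR p was 0.101 without WT replicate 2, 0.111 without WT replicate 3, 0.0614 if Xap5l KO replicate 1 was dropped and 0.0811 if replicate 2 was, while the log2 fold change stayed between 1.31 and 2.07. In the same 4 fits edgeR called 1, 1, 483 and 1 genes higher in the whole table, against 1589 with all libraries. Over all 14 alternatives the adjusted p ran from 2.4e-05 with DESeq2 to 0.111.

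Hspa4l lay higher in every Xap5l KO library but did not pass the test. Its levels were 483, 341 and 228 CPM in WT and 677, 550.04 and 951 CPM in Xap5l KO replicates, with a log2 fold change of 1.05 ± 0.342 (SE, edgeR adjusted p = 0.0703). DESeq2 called it (log2 fold change 1.07, adjusted p = 0.00549), and so did edgeR without WT replicate 1 (adjusted p = 0.0402), and over all alternatives the adjusted p ran from 0.00549 to 0.255. Hspa1l, the spermatid form, had 201, 145 and 134 CPM in WT against 241, 194 and 306 CPM in Xap5l KO sperm. The groups overlapped, since WT replicate 1 lay above Xap5l KO replicate 2. Its log2 fold change was 0.63 ± 0.266 (SE, edgeR adjusted p = 0.132), and an interval of 2 standard errors either side ran from 0.10 to 1.16.

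The ubiquitous members lay on the other side or near no change. Hspa8, the constitutive cytosolic Hsp70, had 202, 233 and 250 CPM in WT against 116, 125 and 131 CPM in Xap5l KO sperm, and the groups did not overlap. It fell by 0.88 on the log2 scale (SE 0.213, edgeR adjusted p = 0.0315), less than 2-fold. Reads shared with Gm15459 cannot be assigned with certainty, and this pseudogene had 29.3 CPM in WT against 9.3 CPM in Xap5l KO sperm (log2 fold change -1.65, edgeR adjusted p = 0.0728). Hspa1b fell by 0.78 (SE 0.212, edgeR adjusted p = 0.0441), with 35.9, 30.8 and 31.0 CPM in WT against 16.6, 16.9 and 23.5 CPM in Xap5l KO sperm. Both passed the adjusted p alone, and both lost it in edgeR without WT replicate 2 (adjusted p = 0.131 for Hspa8 and 0.134 for Hspa1b), without WT replicate 3, without Xap5l KO replicate 1 or 2, with library size alone as the scaling and with no filter on low counts. Hspa1b also lost it without WT replicate 1 (edgeR adjusted p = 0.0624) and with mitochondrial and the most abundant genes left out of the scaling (edgeR adjusted p = 0.0583). Over all alternatives, DESeq2 included, the adjusted p ran from 0.00223 to 0.143 for Hspa8 and from 0.0153 to 0.191 for Hspa1b. Its near copy Hspa1a had 31.0, 25.4 and 22.1 CPM in WT against 13.0, 15.4 and 21.5 CPM in Xap5l KO sperm, lower in all 3 but not past the test (log2 fold change -0.65, edgeR adjusted p = 0.0968).

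Hsp90ab1, the constitutive cytosolic Hsp90, had 604, 731 and 745 CPM in WT against 396, 448 and 315 CPM in Xap5l KO sperm. No Xap5l KO library reached the lowest WT library, and the log2 fold change was -0.85 ± 0.259 (SE, edgeR adjusted p = 0.0594, 0.00964 with DESeq2, and up to 0.203 in edgeR without WT replicate 3). Its inducible relative Hsp90aa1 had 154, 138 and 113 CPM in WT against 143, 214 and 119 CPM in Xap5l KO sperm, so the groups overlapped (log2 fold change 0.23, edgeR adjusted p = 0.556). Hspa5, the Hsp70 of the endoplasmic reticulum, had 83.2 to 182 CPM in WT against 59.1 to 108 CPM in Xap5l KO sperm (log2 fold change -0.45, edgeR adjusted p = 0.369). Hspa4, the ubiquitous Hsp110 relative of Hspa4l, differed little, with 83.4 to 85.7 CPM in WT against 81.5 to 95.6 CPM in Xap5l KO sperm. Its log2 fold change was 0.06, and 2 standard errors either side ran from -0.33 to 0.44.

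Counted together, 1 of the 10 members was called higher in Xap5l KO sperm and 0 were called lower, where 1.27% of tested genes were called lower. DESeq2 also called 0 lower, and at an unadjusted p under 0.05 with the same fold change 0 were lower. At an adjusted p alone, 1 member was higher and 2 were lower, against 9.02% and 3.07% of tested genes. The Xap5l KO libraries stood entirely above the WT libraries in 2 members and below in 4, against 19.2% of tested genes in each direction. The 2 above were germ-cell members and the 4 below were ubiquitous ones. The median log2 fold change was 1.05 over the 3 germ-cell members and -0.65 over the 7 others, beside -0.08 over all tested genes.

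Markers of other cells also differed between the sperm groups. Their counts stand beside 7.59% of all tested genes called higher and 1.27% called lower. In each direction, 19.2% of tested genes did not overlap between groups. All 8 round spermatid markers lay higher in every Xap5l KO library and 6 were called higher, and their summed level ran from 505 to 819 CPM in WT against from 996 to 1208 CPM in Xap5l KO sperm. The 10 pachytene markers, 4 of them called higher, summed to between 1725 and 2779 CPM in WT against between 3432 and 3714 CPM in Xap5l KO sperm. The 9 leukocyte markers lay on the other side, with 4374 to 4948 CPM in WT against 2569 to 3147 CPM in Xap5l KO sperm, with 7 lower in every Xap5l KO library and 1 called lower. None of these marker genes was at 0 in either group. General epithelium markers, 0 of 6 called, summed to between 358 and 427 CPM in WT against between 263 and 317 CPM in Xap5l KO sperm. The epididymal epithelium markers were more abundant and their sums overlapped between groups. They ran from 6589 to 8980.5 CPM in WT and from 4694 to 6707 CPM in Xap5l KO sperm, with 0 of 6 tested called. The 6 Leydig markers summed to between 15.1 and 33.6 CPM in WT against between 7.24 and 14.7 CPM in Xap5l KO sperm. Only 4 of them had counts enough to be tested, 0 passed the adjusted p, and Lhcgr was at 0 in every Xap5l KO library. Erythroid markers overlapped between groups, with 22839 CPM in WT replicate 1 and between 1644 and 6966 CPM in the other 5 libraries. The part of these cells in the levels of Hspa2, Hspa4l, Hspa8, Hspa1b and Hsp90ab1 was not tested. In bulk samples, a change in the number of cells of a type and a change in RNA per cell cannot be told apart.

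The plot of fold changes sets both tissues side by side. Values of the 2 tissues come from tables that were normalized separately, and no test was made across them.

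**Figure D2:**
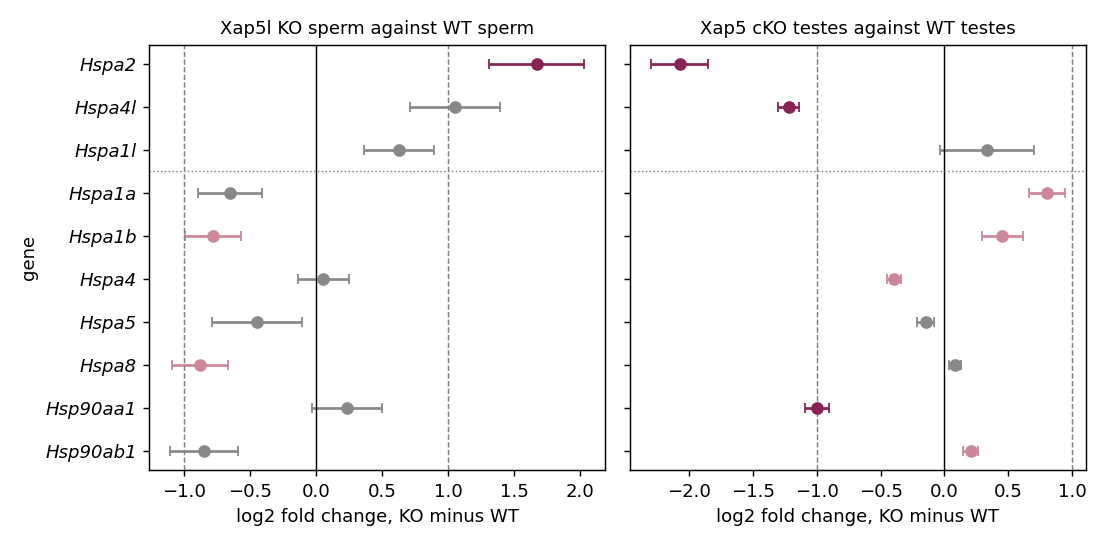
Log2 fold change of each member (KO minus WT) with 1 standard error either side, in Xap5l KO sperm (left) and Xap5 cKO testes (right), 3 libraries per group. Dark points were called, light red points passed the adjusted p alone and grey points did not pass. Hspa2 lies at 1.67 in sperm and at -2.07 in testes, and the dashed lines mark a 2-fold change.

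In WT testes the order of the members was another one. Hsp90aa1 led with 564 ± 40.6 CPM per kb (mean ± SD, n = 3), followed by Hsp90ab1 (434 ± 15.0), Hspa5 (324 ± 22.5), Hspa8 (304 ± 7.53) and Hspa2 (210.1 ± 56.7 CPM per kb), and only Hspa5 and Hspa8 overlapped among these. Hspa4 had 69.6 ± 1.33 and Hspa4l 21.3 ± 2.03 CPM per kb. The inducible genes Hspa1b and Hspa1a were low, at 4.01 ± 0.218 and 3.84 ± 0.358 CPM per kb, and overlapped. Hspa1l was lowest, at 0.576 ± 0.182 CPM per kb, from 57, 33 and 60 counts. In Xap5 cKO testes Hsp90ab1 led with 501 ± 31.0 CPM per kb, Hsp90aa1 came after Hspa8 and Hspa5 at 282 ± 37.7, and Hspa2, at 49.9 ± 12.8 CPM per kb, overlapped Hspa4 at 53.0 ± 2.87.

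**Figure D3:**
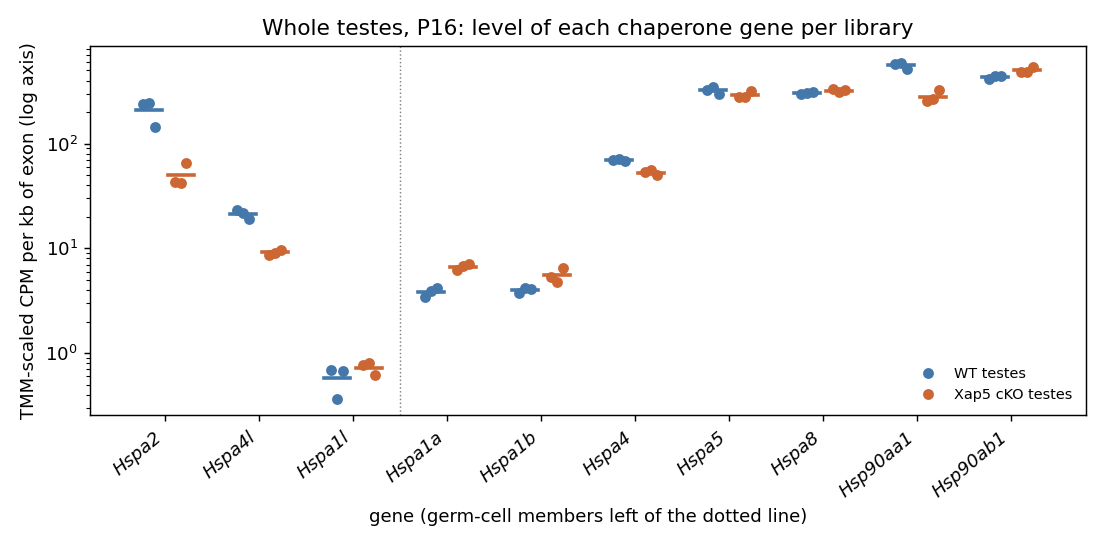
Level of each member in every testis library, in TMM-scaled CPM per kb of exon on a log axis. Points are the 3 WT and 3 Xap5 cKO libraries of P16 testes and bars are group means. Hspa2, Hspa4l, Hspa4 and Hsp90aa1 lie lower in all 3 Xap5 cKO libraries, and Hspa1l is lowest of all in both groups.

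In Xap5 cKO testes 3 members were called lower, Hspa2, Hspa4l and Hsp90aa1. Hspa2, the meiotic Hsp70, fell most, from 639, 645 and 382 CPM in WT to 113, 112 and 171 CPM in Xap5 cKO testes. All Xap5 cKO libraries lay well below the lowest WT library, which was replicate 3. Its log2 fold change was -2.07 ± 0.225 (SE, edgeR adjusted p = 8.74e-05), so the Xap5 cKO level was 0.238 of WT. Without WT replicate 3 the log2 fold change was -2.28 (edgeR adjusted p = 6.37e-06), and the call held in all 14 alternatives tried.

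Hspa4l fell from 272, 257 and 225 CPM in WT to 101, 107 and 114 CPM in Xap5 cKO testes, with narrow and separate groups. The log2 fold change was -1.22 ± 0.0821 (SE, edgeR adjusted p = 1.31e-05). A second entry of the testis table, Hspa4l with an added number, had 195 CPM in WT and 67.1 CPM in Xap5 cKO testes on average (log2 fold change -1.54, edgeR adjusted p = 1.2e-05). What the numbered entries stand for is not given in the sources used here. There were 10 of them for the members, 3 each for Hspa1a, Hspa1b and Hspa1l and 1 for Hspa4l.

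Hsp90aa1, which male meiosis depends on in mouse, fell from 2285, 2332 and 2035 CPM in WT to 1005, 1041 and 1278 CPM in Xap5 cKO testes, and the groups did not overlap. Its log2 fold change of -1.0 (SE 0.0937, edgeR adjusted p = 4.44e-05) lay at the 2-fold threshold. With DESeq2 it was -0.99 (adjusted p = 8.35e-23), and in edgeR -0.98 without WT replicate 1, -0.96 without WT replicate 2, -0.93 without Xap5 cKO replicate 1 and -0.95 without Xap5 cKO replicate 2, all below the threshold, with every adjusted p under 0.05. Hsp90ab1 rose by a small step, from 1251, 1329 and 1328 CPM in WT to 1459, 1439 and 1609 CPM in Xap5 cKO testes (log2 fold change 0.21, SE 0.0569, edgeR adjusted p = 0.0135, and 0.0517 without WT replicate 1 and 0.0538 without Xap5 cKO replicate 3). The ratio of Hsp90aa1 to Hsp90ab1 per length accordingly ran from 1.17 to 1.39 in WT and from 0.525 to 0.606 in Xap5 cKO testes. In sperm the same ratio ran from 0.116 to 0.194 in WT and from 0.276 to 0.364 in Xap5l KO libraries.

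Hspa1a rose in Xap5 cKO testes, from 10.2, 11.7 and 12.3 CPM in WT to 18.4, 20.1 and 21.2 CPM, a log2 fold change of 0.80 (SE 0.14, edgeR adjusted p = 0.00118). Hspa1b rose from 10.6, 11.7 and 11.5 CPM to 14.8, 13.5 and 18.0 CPM (log2 fold change 0.45, SE 0.16, edgeR adjusted p = 0.0382). Neither reached 2-fold, neither overlapped between groups, and Hspa1b passed the edgeR test in 1 of the 6 fits with a library left out, the one without Xap5 cKO replicate 2 (adjusted p = 0.0348, and 0.0522 to 0.141 in the others). Of their numbered entries, Hspa1a-2 and Hspa1b-2 nearly repeated the main entries library by library. Hspa1a-2 had 336, 427 and 428 counts in WT, against 343, 425 and 442 for Hspa1a. That both also passed is therefore no separate support (log2 fold change 0.81 and 0.46, edgeR adjusted p = 0.00116 and 0.0427). The entries numbered 3 and 4 of each gene likewise nearly repeated each other. Hspa1a-3 and Hspa1a-4 did not (0.33 for each, edgeR adjusted p = 0.238 and 0.24). Hspa1b-3 and Hspa1b-4 did not pass either (0.577 and 0.595, edgeR adjusted p = 0.141 and 0.116). Hspa4 fell from 384, 392 and 378 CPM to 297, 306 and 275 CPM (log2 fold change -0.39, edgeR adjusted p = 0.00041). Hspa8 had 1275, 1303 and 1340 CPM in WT and 1417, 1328 and 1406 CPM in Xap5 cKO testes, and 2 standard errors either side of its log2 fold change of 0.08 ran from -0.01 to 0.18 (edgeR adjusted p = 0.172). Hspa5 did not pass the test (log2 fold change -0.15, edgeR adjusted p = 0.104), except in edgeR without WT replicate 3 (adjusted p = 0.0248) and without Xap5 cKO replicate 3 (adjusted p = 0.0318), and its adjusted p ran up to 0.347 in the other alternatives.

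Hspa1l was the germ-cell member that was not called. It had 61, 67 and 50 counts in the Xap5 cKO libraries, overlapping the 57, 33 and 60 counts in WT, and a log2 fold change of 0.33 ± 0.372 (SE, edgeR adjusted p = 0.477). At this depth the interval of 2 standard errors either side ran from -0.41 to 1.08. It leaves a 2-fold rise within it and a 2-fold fall outside it. The numbered entry Hspa1l-2 nearly repeated these counts, with 56, 33 and 60 in WT, and its interval (-0.42 to 1.06) is no separate support. The intervals of Hspa1l-3 (-1.15 to 0.99) and Hspa1l-4 (-1.28 to 0.89), at lower counts, hold a 2-fold fall and no 2-fold rise. The 8 round spermatid markers were low in the same libraries, summing to between 17.5 and 54.8 CPM in WT and between 10.8 and 13.0 CPM in Xap5 cKO testes.

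Of the 10 members, 0 were called higher in Xap5 cKO testes by edgeR and by DESeq2, and 0 at an unadjusted p under 0.05 with the same fold change, where 4.15% of the 16821 tested genes were called higher. The 3 called lower stood beside 10.9% of tested genes. At an adjusted p alone, 3 were higher and 4 lower, against 25% and 28.1%. All Xap5 cKO libraries lay above all WT libraries in 3 members and below in 4, against 29.9% and 32.4%. The median log2 fold change was -1.22 over the 3 germ-cell members and 0.08 over the 7 others, beside -0.01 over all tested genes.

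Germ-cell and somatic markers differed between these groups as well. Their counts stand beside 4.15% of all tested genes called higher and 10.9% called lower. At an adjusted p alone these shares were 25% and 28.1%. Of 10 pachytene markers, 9 were called lower, and their sum lay between 1159 and 2251 CPM in WT and between 175 and 233 CPM in Xap5 cKO testes, with Adam3 at 0 in every Xap5 cKO library. Spermatogonia markers summed to between 719 and 819 CPM in WT and between 468 and 509 CPM in Xap5 cKO testes. At an adjusted p under 0.05, 6 of these 8 were lower and 1 was higher. The 2 called lower were Sall4 and Stra8, and Stra8 is the gene that drives Cre in the Xap5 cKO line. The leptotene and zygotene markers, 6 of 8 called lower, summed to between 1031 and 1221 CPM in WT and between 562 and 774 CPM in Xap5 cKO testes. Sertoli markers summed to between 2034 and 2084 CPM in WT and between 3283 and 3423 CPM in Xap5 cKO testes, with 7 of 8 higher at an adjusted p under 0.05 and 1 called. Leydig markers, 3 of 6 called higher, ran from 193 to 336 CPM in WT and from 389 to 737 CPM in Xap5 cKO testes. Leukocyte markers, 5 of 7 tested called higher, summed to between 76.4 and 110.1 CPM in WT and between 161 and 218 CPM in Xap5 cKO testes, with S100a8 and S100a9 at 0 in every testis library. The part of all these cells in the lower Hspa2, Hspa4l and Hsp90aa1 and the higher Hspa1a and Hspa1b was not tested.

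The share of the germ-cell members in the summed level of all 10 (CPM per kb) condenses both comparisons into a description, with no test. In WT sperm they made up 31.2%, 23.9% and 21.8%, and in Xap5l KO sperm 53.5%, 52.4% and 54.7%. The highest WT share stayed well below the lowest Xap5l KO share. In WT testes the shares were 13.5%, 13.1% and 9.07%, and in Xap5 cKO testes 3.54%, 3.6% and 4.56%. The summed level of the 10 genes overlapped between sperm groups, at 497 to 536 CPM per kb in WT and 488 to 578 in Xap5l KO, while the part outside the germ-cell members ran from 369 to 394 in WT and from 221 to 275 CPM per kb in Xap5l KO sperm. Hspa2 alone made up 7.02% to 8.32% of the total in WT sperm and 12.8% to 30.7% in Xap5l KO sperm. In testes it made up 7.98% to 12.3% in WT and 2.91% to 3.94% in Xap5 cKO libraries, so the germ-cell share there was mostly Hspa2.

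**Figure D4:**
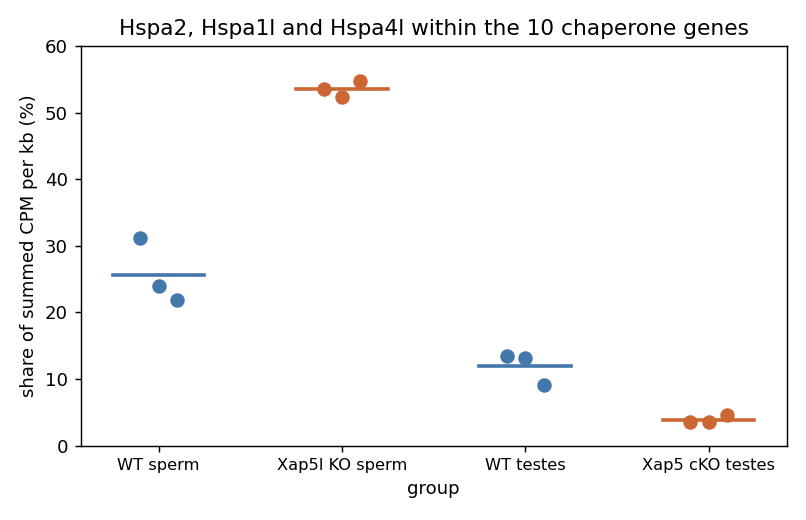
Share of Hspa2, Hspa1l and Hspa4l in the summed CPM per kb of the 10 members, in percent, for each of the 12 libraries, with group means as bars. The shares lie near 53.5% in Xap5l KO sperm against 25.6% in WT sperm, and near 3.9% in Xap5 cKO testes against 11.9% in WT testes.

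Ratios of each germ-cell member to a ubiquitous relative cancel the library scaling. Hspa2 over Hspa8 ran from 0.602 to 0.95 in WT sperm and from 2.04 to 6.08 in Xap5l KO sperm, and from 0.464 to 0.815 in WT testes and from 0.13 to 0.198 in Xap5 cKO testes. Hspa4l over Hspa4 ran from 1.25 to 2.71 in WT sperm and from 2.7 to 5.47 in Xap5l KO sperm, with a narrow overlap. In testes it ran from 0.279 to 0.332 in WT and from 0.16 to 0.195 in Xap5 cKO libraries. Hspa1l over Hspa1a, whose starts face each other, ran from 6.86 to 7.8 in WT sperm and from 15.1 to 22.3 in Xap5l KO sperm. In testes this ratio was below 0.2 in every library.

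The genes most like the germ-cell members were sought among 13959 genes tested in both tables, by the mean of the 2 Pearson correlations of log2 CPM over the 6 libraries of each table. The points share libraries and genotype, so these values are a description. For Hspa2 they were Supt20 (mean r = 0.996), Rb1cc1 (0.996) and Hdac1 (0.996). For Hspa4l they were Upf3a (0.993), Fxr1 (0.991) and Lrriq3 (0.99). For Hspa1l they were Azi2 (0.939), Fabp12 (0.923) and Clmn (0.917).

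The other genes of the chaperone system were followed through a list of 141, of which 133 were tested in sperm and 129 in testes. In Xap5l KO sperm 9 of the 133 were called higher and 0 lower, beside 7.59% and 1.27% of all tested genes, so the count was near the share over all genes. DESeq2 called 10 higher and 0 lower, and at an unadjusted p under 0.05 with the same fold change 10 were higher and 0 lower. Over the whole list the log2 fold change had a median of 0.08, and over all tested genes of -0.08. With replicate 2 of either genotype or WT replicate 3 left out edgeR called 0 of them and 1 gene higher in the whole table, and with Xap5l KO replicate 1 left out it called 3 of them and 483 genes in the whole table, against 1589 with all libraries.

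The heat shock factor list holds transcription factors that switch on chaperone genes, their relatives, Hsf2bp and Hsbp1. Of its 6 genes tested in sperm, 3 were called higher. This count and those of the smaller lists that follow stand beside the same 7.59% of all tested genes. Hsf1 was not called (log2 fold change 0.23, edgeR adjusted p = 0.515). Hsf5, which spermatocytes need to pass through pachytene, rose from 32.4 ± 6.96 to 102 ± 46.1 CPM (mean ± SD, n = 3), a log2 fold change of 1.66 (edgeR adjusted p = 0.0224). Hsfy2, a testis-expressed relative, rose by 1.33 on the log2 scale (edgeR adjusted p = 0.0164), and Hsf2 rose by 1.12 (edgeR adjusted p = 0.0186). Among J-domain co-chaperones, 3 of 48 tested were called higher. Dnajb13, a protein of the axonemal radial spoke, rose from 24.4 ± 2.5 to 71.1 ± 27.2 CPM (log2 fold change 1.54, edgeR adjusted p = 0.0176), and Dnajc27 and Dnajc5g rose by 1.16 and 1.13 (edgeR adjusted p = 0.016 and 0.0372). Dnajb8 was the most abundant of the list, with 1058 ± 284 CPM in WT and 1947 ± 619 in the Xap5l KO group, and missed the threshold (edgeR adjusted p = 0.111).

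Of the 9 known partners of HSPA2 tested in sperm, 2 were called higher. Bag6, a co-chaperone that protects HSPA2 from degradation in spermatocytes, rose from 171 ± 15.6 to 373 ± 82.7 CPM (log2 fold change 1.13, edgeR adjusted p = 0.025). Spam1, the sperm surface hyaluronidase, rose from 5.46 ± 0.523 to 15.9 ± 2.34 CPM (log2 fold change 1.54, edgeR adjusted p = 0.0118). Tnp2, a transition protein that HSPA2 escorts during chromatin packing, was the most abundant partner, and its groups overlapped (log2 fold change 0.42, edgeR adjusted p = 0.382). Among Hsp90 co-chaperones only Ruvbl2, an ATPase of the R2TP assembly complex, was called higher, of 32 tested (log2 fold change 1.07, edgeR adjusted p = 0.0195), and the most abundant, Fkbp4, had a log2 fold change of 0.10 (edgeR adjusted p = 0.777). The most abundant genes of the other lists did not pass either. Their log2 fold changes were -0.16 for Hspa9, -0.58 for Hsp90b1, 0.08 for Bag1, 0.57 for Hsbp1, -0.69 for Odf1 and 0.66 for Tcp1 (edgeR adjusted p between 0.0731 for Tcp1 and 0.925 for Bag1).

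**Figure D5:**
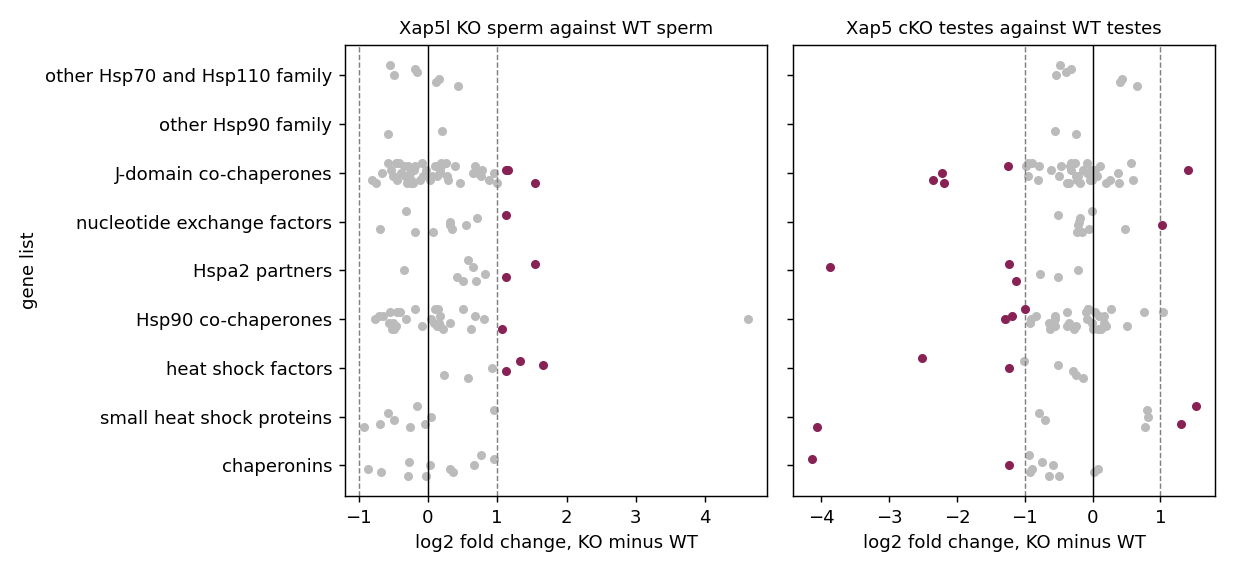
Log2 fold change (KO minus WT) of each tested gene of the 9 lists of chaperone genes other than the 10 members, in Xap5l KO sperm (left) and Xap5 cKO testes (right). Dark points were called by edgeR and grey points were not, and the dashed lines mark a 2-fold change. In sperm all 9 called genes lie to the right, and in testes 15 lie to the left and 4 to the right. The grey point at 4.62 in sperm is Unc45b, which did not pass the test.

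In Xap5 cKO testes 4 of the 129 tested genes were called higher and 15 lower, beside 4.15% and 10.9% of all tested genes, so both counts were near those shares. The median log2 fold change was -0.25 over the list and -0.01 over all tested genes. At an adjusted p alone, 15 were higher and 67 lower, beside 25% and 28.1% of all tested genes. Of the 6 HSPA2 partners tested, all were lower at an adjusted p under 0.05 and 3 were called. Shcbp1l, which binds HSPA2 at the meiotic spindle, fell from 101 ± 42.3 to 6.88 ± 1.65 CPM (log2 fold change -3.87, edgeR adjusted p = 3.64e-05). Sycp1, the transverse filament of the synaptonemal complex, fell from 734 ± 44.9 to 313 ± 53.1 CPM (log2 fold change -1.23, edgeR adjusted p = 3.54e-05), and Arsa, arylsulfatase A, fell by 1.13 on the log2 scale (edgeR adjusted p = 0.0134).

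Hsf5 fell from 53.0 ± 9.56 to 9.25 ± 1.12 CPM in Xap5 cKO testes (log2 fold change -2.52, edgeR adjusted p = 1.15e-05), and Hsf2bp, a meiotic recombination factor that binds HSF2, fell by 1.23 (edgeR adjusted p = 5.76e-05). Cct6b, the testis form of a chaperonin subunit, fell from 27.8 ± 12.7 to 1.58 ± 0.0559 CPM (log2 fold change -4.13, edgeR adjusted p = 3.91e-05), and Tcp1 fell from 716 ± 124 to 305 ± 15.8 CPM (log2 fold change -1.23, edgeR adjusted p = 4.41e-05). Of the 45 J-domain genes tested, 4 were called lower, among them Dnajc5g, Dnajb3 and Dnajb13 with log2 fold changes of -2.35, -2.22 and -2.19 (edgeR adjusted p between 0.000374 and 0.000384). St13, which links Hsp70 to Hsp90, fell by 1.29 (edgeR adjusted p = 8.8e-06), and Ptges3l, a relative of the Hsp90 co-chaperone p23, fell by 1.0 to just past 2-fold (edgeR adjusted p = 0.0153).

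The genes called higher in Xap5 cKO testes were Hspb1, Hspb8, Bag3 and Dnajc12. Hspb1 and Hspb8 are small heat shock proteins, and Bag3 is the exchange factor that works with HSPB8 in removing damaged proteins. Hspb1 rose from 68.5 ± 4.39 to 169 ± 28.9 CPM (log2 fold change 1.3, edgeR adjusted p = 3.52e-05), Hspb8 from 3.38 ± 1.16 to 9.76 ± 1.19 CPM (log2 fold change 1.53, edgeR adjusted p = 0.0016) and Bag3 from 15.1 ± 0.362 to 30.7 ± 2.86 CPM (log2 fold change 1.02, edgeR adjusted p = 0.00011). Dnajc12 rose by 1.41 (edgeR adjusted p = 0.000247). In the same list the germ-cell small heat shock protein Hspb9 fell from 10.2 ± 7.46 to 0.607 ± 0.253 CPM (log2 fold change -4.06, edgeR adjusted p = 0.00116). The most abundant genes of the remaining lists changed less than 2-fold, with log2 fold changes of -0.48 for Hyou1, -0.25 for Hsp90b1, -0.18 for Dnaja1, -0.23 for Bag1, 0.01 for Fkbp4 and -0.14 for Hsbp1, of which Fkbp4 and Hsbp1 did not pass the edgeR test (adjusted p = 0.891 and 0.215).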

How the data were processed

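RNA was measured in 12 libraries, 3 per group as labelled. The authors trimmed reads (FastQC 0.11.2 and Trimmomatic 0.36 are in the submitters' processing notes), mapped them to GRCm38 with HISAT2 2.1.0 and deposited raw counts as whole numbers per gene entry, in 1 table per tissue with no normalization. The counting tool, the use of strand and the treatment of reads that map to several genes are not given in the sources used here. Each table was filtered with filterByExpr, scaled by TMM and tested on its own with edgeR 4.0.16 (R 4.3.3), quasi-likelihood test, genotype as the only term, with Benjamini-Hochberg adjustment over all entries tested. Genes were called at an adjusted p under 0.05 and a fold change above 2. The standard error is that of the log2 fold change. DESeq2 1.42.0 was an alternative, and the closing section gives the others. With 3 libraries against 3, an exact permutation test cannot go below p = 0.1. Exon lengths and windows of 150 bases came from GENCODE M21 (Python 3.11.15, Biopython 1.88), and figures from matplotlib 3.10.9. Replicates of a group differed by more than counting noise (median chi-square per gene of 3.92 to 44.5). The tests were checked on simulated data.

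The members and all gene lists were chosen with earlier results of these data known. Genes named are the 10 members, Fam50a and Fam50b, per list up to 3 called genes in each direction with the largest change at a mean of 5 CPM or more in WT or KO plus the most abundant gene, and the 3 genes most correlated with each germ-cell member. Unc45b, Hsf1, Gm15459, Gm12346 and the marker genes named were added after their values were seen. The numbered entries of the testis table were kept apart.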

Additional observations from a re-analysis of the deposited data

How the results depend on the processing

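Over 14 alternatives for each of the 20 member fold changes, 263 of 280 results kept their direction and stayed called or not called. Members called higher in Xap5l KO sperm numbered 1, and 2 with library size alone, with no filter on low counts and with DESeq2, where Hspa4l joined Hspa2 (log2 fold change 1.13, 1.11 and 1.07). With 1 library left out the number ran from 0 to 2. No sperm member was called lower, and 2 were lower at an adjusted p alone. Pathway genes called higher in sperm numbered 9, 15 at an adjusted p alone, and 0 to 13 with 1 library left out, and those lower 0, 3 at an adjusted p alone, and 0 to 1 with 1 library left out. In testes the adjusted p alone moved the members called higher from 0 to 3, the pathway genes called higher from 4 to 15 and those lower from 15 to 67. Without WT testis replicate 3 the pathway genes called numbered 5 higher and 19 lower. Signs turned without Xap5l KO replicate 2 for Hspa4 (log2 fold change -0.0072, edgeR adjusted p = 0.988, and -0.0072 to 0.19 over the libraries left out) and Hsp90aa1 (-0.041, edgeR adjusted p = 0.937, and -0.041 to 0.48), neither of which was called. Hsp90aa1 in testes missed 2-fold in 7 of 14 alternatives, with log2 fold changes between -0.93 and -0.99. The longest transcript as length, which changes only the length each gene is divided by, moved the germ-cell share in Xap5l KO sperm from 53.5% to 50.7%. Why the other results moved was not tested. No scaling moved the median of all genes by more than 0.1 on the log2 scale.

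Replicate numbers are shared between genotypes. Deviations of same-numbered libraries from their group means had correlations of 0.149, -0.0229 and -0.0809 in sperm and 0.0125, -0.0141 and -0.00805 in testes. Differently numbered sperm libraries reached 0.178. Sperm replicate 1 had low TMM factors in both genotypes (0.821 in WT, 0.808 in Xap5l KO), against 1.08 to 1.12 in the other sperm libraries. The median chi-square between both replicate 1 libraries was 18.7, with counts scaled by library totals and not by TMM factors. It was 26.9 and 35.8 between WT replicate 1 and WT replicates 2 and 3. Pearson correlations of TMM-scaled log2 CPM went the other way. They were 0.94 between both replicate 1 libraries and 0.964 between WT replicate 1 and each of WT replicates 2 and 3. A shared effect on replicate 1 was not tested. With a replicate block edgeR called 1 member higher and 0 lower in sperm, with Hspa2 at 1.55 (adjusted p = 0.0404), and 0 higher and 3 lower in testes, and 7 pathway genes higher in sperm and 4 higher and 14 lower in testes. Hspa8 and Hspa1b in sperm (adjusted p = 0.0601 and 0.0763) and Hspa1b in testes (0.0606) did not pass the edgeR test with it.

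Depth did not limit the members, with at least 343 counts in any library except for Hspa1l in testes, where 33 to 67 counts leave a wide interval.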
